A study of Rattus norvegicus with 11 samples.

Results

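miR-375 is the microRNA (miRNA) most closely tied to the hormone-producing cells of the pancreatic islet, and its level was measured here in islets of daughters of HFD and Control fathers. It was taken as every probe whose target name is rno-miR-375. That is 1 miRNA of the 340 whose names occur on both array designs, measured by 2 probes, A_26_P00001826 and A_26_P00001827, each printed as 10 spots per array. Its 220 spots on all 11 arrays were examined.

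HFD daughters had fathers fed pellets with 43% fat, and Control daughters had fathers fed chow with 9% fat. Fathers were Sprague Dawley rats, mated at 15 weeks of age with chow-fed females, and the daughters themselves were weaned at 3 weeks onto chow. Islets were taken at 13 weeks, after glucose was given by injection at 6 and 12 weeks of age and insulin at 11, to test tolerance. There were 5 HFD and 6 Control samples, of which 4 HFD and 4 Control were run on a first array design and 1 HFD and 2 Control on a second. Each array carried Cy3-labelled RNA from 100 ng of total islet RNA. Which daughters were sisters is not in the labels, so p-values measure the spread between samples that may be related. Array design, slide and scan coincided and cannot be told apart, so design was a block in each main test.

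miRNAs are short RNAs that pair, mainly through a seed near their 5′ end, with sites in mRNAs and lower the protein output of those mRNAs. miR-375 is made in beta cells and in other islet endocrine cells. In mouse beta cell lines it restrains insulin secretion, in part through myotrophin. In rat beta cell lines it lowers the protein PDK1, a kinase of the insulin signalling pathway. Mice that lack it have fewer beta cells, more alpha cells and raised blood glucose.

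The RefSeq sequences on rat build GRCr8 are shown because the array names the miRNA without its arm. miR-375-3p is the strand usually meant by the plain name, and miR-375-5p is the opposite strand of the same hairpin. Sequences run 5′ to 3′, with the seed (bases 2 to 8) in capitals in the mature strands and the 3p strand in capitals in the hairpin.
rno-miR-375-3p: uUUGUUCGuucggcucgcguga
rno-miR-375-5p: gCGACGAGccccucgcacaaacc
rno-miR-375 hairpin: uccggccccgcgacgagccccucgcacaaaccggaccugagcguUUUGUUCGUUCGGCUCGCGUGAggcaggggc

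The hairpin of 75 bases lies on the minus strand at chr9:83906582-83906656, the 3p strand of 22 bases at chr9:83906591-83906612 and the 5p strand of 23 bases at chr9:83906625-83906647. The annotation places it within the spans of Cryba2 and LOC134480387, with Fev and Cfap65 as the neighbouring genes. The 3p strand fills positions 45 to 66 of the hairpin and the 5p strand positions 10 to 32. Of 724 rat mature miRNAs in the table, 0 others shared the 3p seed, whether bases 2 to 8 or 2 to 7 were compared. No other rat miRNA in this table could therefore be grouped with miR-375 by seed.

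miR-375 gave a clear signal in the islets of every daughter. All 220 spots were well above background by the scanner software's own call, and 0 were saturated. Signals were scaled by each array's 75th percentile over 85 miRNAs that every array detected, and levels are given as log2 of that scaled signal. On the first design the HFD levels were 12.00 in HFD 603, 12.39 in HFD 607, 12.19 in HFD 644 and 12.16 in HFD 653. The Control levels were 12.07 in Control 602, 12.02 in Control 613, 12.26 in Control 615 and 12.55 in Control 639. HFD 603 was lowest and Control 639 highest, and the other 3 HFD samples lay between Control 602 and Control 639. The groups overlapped from 12.02 to 12.39, with HFD 603 below that stretch and Control 639 above it. On the second design the level was 12.72 in HFD 640, against 12.83 in Control 635 and 12.62 in Control 652, so the HFD sample lay between both Control samples.

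**Figure D1:**
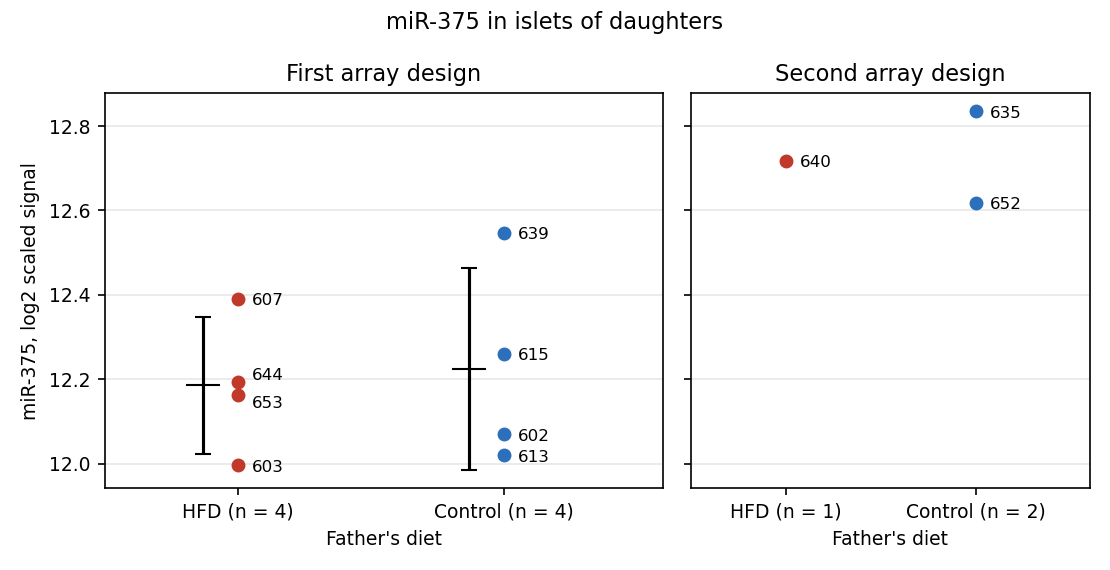
Level of miR-375 (y axis, log2 scaled signal) in each daughter's islets by father's diet (x axis), for the first array design (left) and the second (right). Points are single arrays with their sample number, and bars on the first design are the mean ± SD of 4 arrays. HFD and Control points overlap on both designs, and Control 639 at 12.55 is the highest of the first.

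On the first design the mean level was 12.19 ± 0.16 in HFD and 12.22 ± 0.24 in Control (SD, n = 4 each). In linear units this was a scaled signal of 4681 ± 530.0 in HFD and 4834 ± 832.3 in Control. The fitted difference over all 11 arrays was -0.031 ± 0.12 (SE) on the log2 scale, HFD minus Control. Its 95% interval ran from -0.30 to 0.24, a fold of 0.979 with bounds of 0.811 and 1.18. miR-375 thus did not differ between the groups beyond the spread between samples. Those bounds hold for this scaling. The fold bounds were 0.699 and 1.11 with median scaling, 0.632 and 1.11 with the 75th percentile over all shared miRNAs, and 0.643 and 1.65 without scaling. The limma adjusted p was 0.987 over 152 tested miRNAs, and exact permutation of the group labels within each design gave a 2-sided p of 0.795. With 210 splits, the smallest p that permutation could give was 0.0048.

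Of the 152 miRNAs, those detected on at least 5 arrays, 0 were called at an adjusted p under 0.05, a background of 0%. At an unadjusted p under 0.05 limma counted 3, a background of 1.97%, and miR-375 ranked 116 by p. The median difference over all tested miRNAs was 0.066, with 108 above 0 and 44 below, which put miR-375 0.097 under that median. These signs followed the scaling. With median scaling 49 of the 152 were above 0 and 103 below, with the 75th percentile over all shared miRNAs 36 and 116, with quantile normalisation 48 and 104, and with an RMA-like summary 44 and 108. The difference was -0.038 ± 0.15 (SE) on the first design alone and -0.0079 on the second, where 1 HFD array stood against 2 Control arrays. The test of diet by array design gave 0.030 ± 0.30 (SE), second minus first, with a limma adjusted p of 0.996. The sign did not hold under every setting, although some settings, such as a higher floor, could not move the value. It was positive in 5 of 32 alternatives, namely without Control 639, at 0.048, without HFD 603, at 0.016, without scaling between arrays, at 0.042, in the authors' deposited table, at 0.051, and with array weights, at 0.031. It was further below 0 with median scaling, at -0.18 ± 0.15 (SE), and with the 75th percentile over all shared miRNAs, at -0.26 ± 0.19 (SE).

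Signal was summed here over the miRNAs whose names occur on both array designs, which leaves out names on a single design. The share of this sum that came from miR-375 needs no scaling between arrays, although it is a share of brightness and not of molecules. It was 4.26% in HFD 603, 5.40% in HFD 607, 4.71% in HFD 644 and 4.51% in HFD 653 on the first design. In Control it was 4.62% in sample 602, 4.27% in 613, 4.65% in 615 and 5.95% in 639. The second design gave 5.87% in HFD 640, against 7.02% in Control 635 and 5.78% in Control 652. The same samples were at the ends as for the level, HFD 603 lowest and Control 639 highest on the first design. The means there were 4.72 ± 0.49% in HFD and 4.87 ± 0.74% in Control (SD, n = 4 each). Over both designs HFD and Control differed by -0.249 percentage points, with an exact permutation p of 0.529, or 0.705 adjusted over the 4 permutation tests made on miR-375. Without Control 639 the difference was -9.5e-05 points. Whether miR-375 is the most abundant islet miRNA cannot be read from these shares, since probes for different miRNAs differ in brightness.

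Before scaling, the miR-375 signal varied more. It was 2382 in HFD 603, 4795 in HFD 607, 4404 in HFD 644 and 2677 in HFD 653, against 2920 in Control 602, 3574 in Control 613, 3504 in Control 615 and 4818 in Control 639. The highest of these 8 arrays was 2.02 times the lowest, and 1.46 times after scaling. Unscaled signals of the second design were 12921 in HFD 640, against 6652 in Control 635 and 13275 in Control 652. After scaling the highest of these 3 was 1.16 times the lowest. All 3 arrays of the second design had a higher scaled level than all 8 of the first, and what part of this belongs to the design and what to the samples cannot be told apart.

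miR-375 was neither among the steadiest nor among the most variable miRNAs. Its SD within group and design was 0.19 on the log2 scale, against a median of 0.21 over the 85 miRNAs detected on all arrays, of which 36 had a smaller SD. The software's own error for miR-375 was 8.95% to 9.38% of the signal on the 4 HFD arrays of the first design and 8.96% to 9.03% on the 4 Control arrays. On the second it was 7.69% in HFD and 7.68% to 7.74% in Control. On the first design these errors are smaller than the SD between daughters of a group. They hardly followed the scatter of spots within an array, so they are not read here as that scatter. For probe A_26_P00001826 the SD of the 10 spots was 45.2% of their mean in HFD 653 and 19.1% in Control 613. The errors on these arrays were 9.38% and 9.01%.

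For each probe the 95% interval of the diet difference included 0. Probe A_26_P00001826 read 9.00, 9.25, 9.25 and 8.95 in HFD 603, 607, 644 and 653, against 9.10, 9.17, 9.38 and 9.46 in Control 602, 613, 615 and 639. On the second design it read 10.93 in HFD 640, against 11.06 in Control 635 and 10.77 in Control 652. Control 615 and Control 639 were above all 4 HFD arrays of the first design, while the other 2 Control arrays lay within the HFD range. Its fitted difference was -0.12 ± 0.098 (SE), with a 95% interval of -0.34 to 0.10 and a limma adjusted p of 0.970.

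Probe A_26_P00001827 read 11.80, 12.22, 11.99 and 12.00 in HFD 603, 607, 644 and 653. It read 11.87, 11.80, 12.05 and 12.37 in Control 602, 613, 615 and 639. On the second design it read 12.23 in HFD 640, against 12.34 in Control 635 and 12.15 in Control 652. The groups overlapped on both designs. The fitted difference was -0.019 ± 0.11 (SE), with a 95% interval of -0.28 to 0.24 and a limma adjusted p of 1. Of 309 probes tested, 0 were called, a background of 0%, and 5 had an unadjusted p under 0.05.

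How the miR-375 signal divided between its 2 probes changed with the array design. Probe A_26_P00001826 supplied 11.9 ± 1.02% of the summed miR-375 signal in HFD and 13.0 ± 0.95% in Control on the first design (SD, n = 4 each). On the second it supplied 28.9% in HFD 640, against 29.2% in Control 635 and 27.7% in Control 652. No array of the first design reached the share of any array of the second. Between HFD and Control that share differed by -0.71 percentage points over both designs, with an exact permutation p of 0.262, or 0.524 adjusted over 4 tests.

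The spots behind these values were far more even on the second design. The coefficient of variation (SD over mean) of the 10 spots of probe A_26_P00001826 ran from 19.1% to 45.2% on the first design and from 2.50% to 3.72% on the second. For probe A_26_P00001827 it ran from 7.17% to 30.1% on the first and from 3.44% to 7.60% on the second. HFD 653 had the most uneven spots of both probes, and it was also the array with the fewest of the 340 shared miRNAs detected, 105. The unscaled signal of its negative control spots had an SD of 12.9. On the other arrays of the first design that SD ran from 2.26 in HFD 603 to 3.65 in HFD 607. Low signals on HFD 653 are therefore less sure. The software flagged 5 of the 220 spots as outliers, and these were left out of the means.

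**Figure D2:**
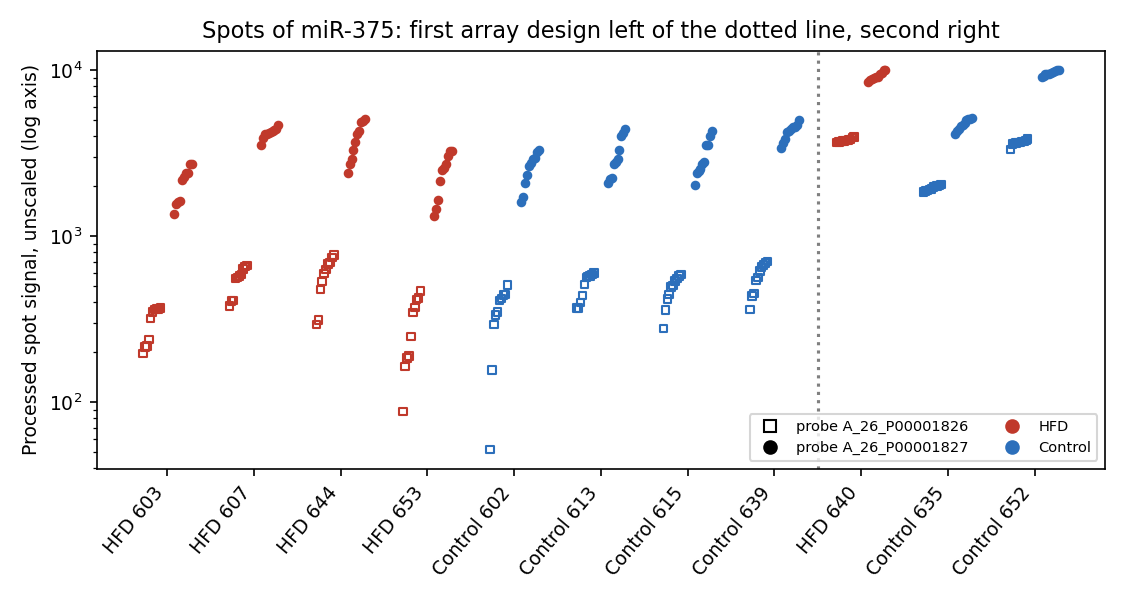
Unscaled processed signal of each miR-375 spot (y axis, log scale) on each array (x axis), with open squares for probe A_26_P00001826 and filled circles for probe A_26_P00001827. HFD arrays are red and Control arrays blue, and the dotted line parts the 8 arrays of the first design from the 3 of the second. Spots of 1 probe scatter more on the first design, and the lowest, at 51.7, is on Control 602.

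On the first design the unevenness followed the position of the array on its slide. Each spot was expressed as its log2 deviation from the mean of its probe on that array, and the 20 deviations were correlated between arrays. HFD 653 and Control 602, both in slide column 1, correlated at 0.89. HFD 603 and HFD 644, in column 2, correlated at 0.79, and Control 613 and Control 615, in column 4, at 0.79. HFD 607 and Control 639, in column 3, correlated at 0.62. The 24 pairs from different columns ran from -0.54 to 0.39 with a median of -0.072, so each same-column pair was above all of them. These are descriptions over 20 spots that share their probe, slide and scan.

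The same pattern held for other miRNAs. Over 704 spots of 71 probes of other miRNAs detected on all arrays, same-column pairs correlated at 0.68 to 0.84 and other pairs at -0.14 to 0.42. The clearest single case was 1 spot of probe A_26_P00001826. It read 87.8 in HFD 653 and 51.7 in Control 602, both in column 1, against 238.8 to 680.0 on the other 6 arrays of the slide. The software flagged this spot on Control 602, where it was left out of the mean, but not on HFD 653, where it was kept. With flagged spots kept, the HFD minus Control difference of this probe was -0.076 ± 0.10 (SE), against -0.12 ± 0.098 (SE) without them.

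**Figure D3:**
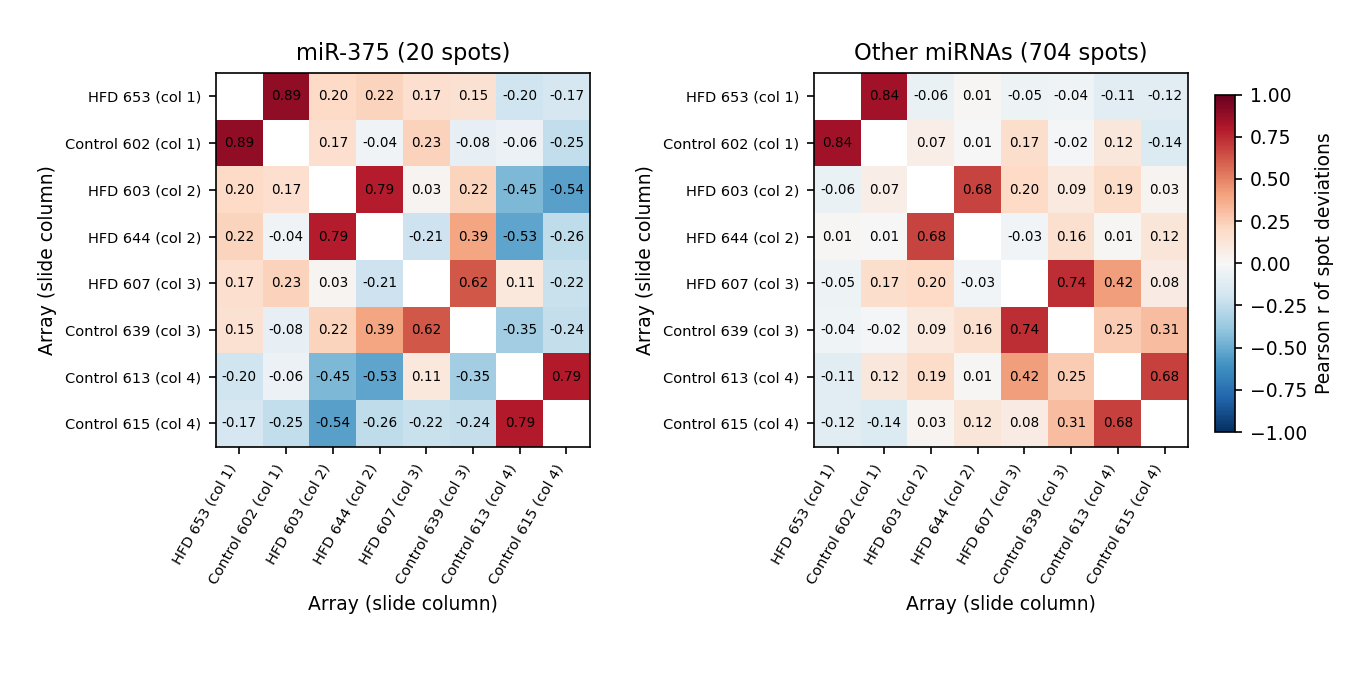
Pearson correlation between arrays of the first design of their spot deviations, for the 20 miR-375 spots (left) and 704 spots of other miRNAs (right), with arrays on both axes ordered by slide column. Colour runs from -1 (blue) to 1 (red). The 4 same-column pairs are the only ones above 0.42 in either panel.

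For the level of miR-375, differences within and between slide columns overlapped. Arrays of 1 column differed in level by 0.093 to 0.24, with a median of 0.18, and arrays of different columns by 0.023 to 0.55, with a median of 0.19. The mean level was 12.12 in column 1, 12.09 in column 2, 12.47 in column 3 and 12.14 in column 4. HFD 607 and Control 639, the highest array of each group on this design, shared column 3. Columns 1 and 3 held 1 array of each group. There the HFD minus Control difference was 0.093 in column 1 and -0.16 in column 3, of opposite sign. With slide column as a block, the first-design difference was -0.031 ± 0.17 (SE), with a limma adjusted p of 0.972. Columns 2 and 4 held a single group each. The part of slide position in the level was not tested. Setting each spot only against the same spot of other arrays gave -0.031 ± 0.11 (SE), with a limma adjusted p of 0.999.

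The opposite strand was not detected. The second design also carries probes for miR-375*, an older name for the passenger strand. Of its 20 spots, 0 were well above background in HFD 640, and likewise 0 in Control 635 and in Control 652. The mean background-subtracted signal was -5.19 in HFD 640, against -9.32 in Control 635 and -7.74 in Control 652. The first design did not measure it.

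Of the other miRNAs of islet endocrine cells, 0 passed the test. The list holds 23 names besides miR-375, of which 21 were on both designs and 14 were tested. Of these, 11 read above 0 and 3 below, with a median of 0.100 and a range of -0.23 to 0.42, beside 108 of 152 above 0 and a median of 0.066 over all tested. The split turned with the scaling, to 4 above 0 and 10 below with median scaling, 3 and 11 with the 75th percentile over all shared miRNAs, and 5 and 9 with quantile normalisation and with the RMA-like summary. miR-7a, which restrains insulin secretion in mouse beta cells, was at 13.05 ± 0.13 in HFD and 13.03 ± 0.22 in Control on the first design (SD, n = 4 each). Its fitted difference was 0.050 ± 0.11 (SE). miR-96, miR-182 and miR-183 are made from 1 shared gene cluster, and their differences were -0.10 ± 0.19, 0.14 ± 0.21 and -0.15 ± 0.14 (SE).

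miR-204, which lowers insulin transcription through MafA in rat beta cell lines, differed by 0.22 ± 0.22 (SE), and miR-127, from an imprinted gene region, by 0.065 ± 0.18 (SE). Each of these named miRNAs had a limma adjusted p of 0.987. miR-184, which in mouse islets targets the miRNA effector Ago2, was not detected on any array. Set against the mean of the 14 tested endocrine miRNAs on the same array, miR-375 was higher by 4.46, 4.53, 4.35 and 4.37 in HFD 603, 607, 644 and 653. In Control 602, 613, 615 and 639 it was higher by 4.63, 4.40, 4.40 and 4.69. On the second design the value was 4.51 in HFD 640, against 4.81 in Control 635 and 4.63 in Control 652. The size of this offset depends on probe brightness and has no meaning of its own, so it serves only to compare arrays. The HFD sample of the second design lay below both Control samples, while the groups of the first overlapped. The difference was -0.13, with an exact permutation p of 0.110, or 0.438 adjusted over 4 tests, and it was 0.059 after quantile normalisation. Some of the 14 were not detected on every array, such as miR-383 on 5 and miR-132 on 8. With only miRNAs detected on all arrays the difference was -0.092 (exact permutation p = 0.338). Over 26 alternatives the unadjusted permutation p ran from 0.062 to 0.952.

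miRNAs linked to insulin production, insulin secretion or beta cell growth gave a like count. This list shares members with the endocrine list, among them miR-7a, miR-96, miR-182, miR-204 and miR-212, so the counts are not separate. miR-212, at 0.42, is the top of both ranges. Of 32 names, 30 were on both designs and 24 were tested. Of the tested, 0 were called, 19 read above 0 and 5 below, with a median of 0.049 and a range of -0.10 to 0.42, again beside 108 of 152 above 0. That split turned too, to 4 above 0 and 20 below with median scaling, 3 and 21 with the 75th percentile over all shared miRNAs, 9 and 15 with quantile normalisation, and 7 and 17 with the RMA-like summary. miR-29a, which lowers the lactate transporter Mct1 in mouse islets, differed by 0.093 ± 0.10 (SE). miR-34a, a target of p53 that rises in stressed beta cells, differed by 0.23 ± 0.34 (SE). miR-200c, of a family that promotes beta cell death in mice, differed by 0.0083 ± 0.096 (SE).

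miR-30d, which raises insulin transcription in mouse beta cell lines, differed by -0.030 ± 0.18 (SE). miR-26a, which acts on insulin sensitivity in mouse liver, differed by -0.024 ± 0.10 (SE), and miR-24, which restrains beta cell proliferation in mice, by 0.078 ± 0.10 (SE). All of these had a limma adjusted p of 0.987. miR-9, which lowers the transcription factor Onecut2 in rat beta cell lines, was not detected on any array.

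**Figure D4:**
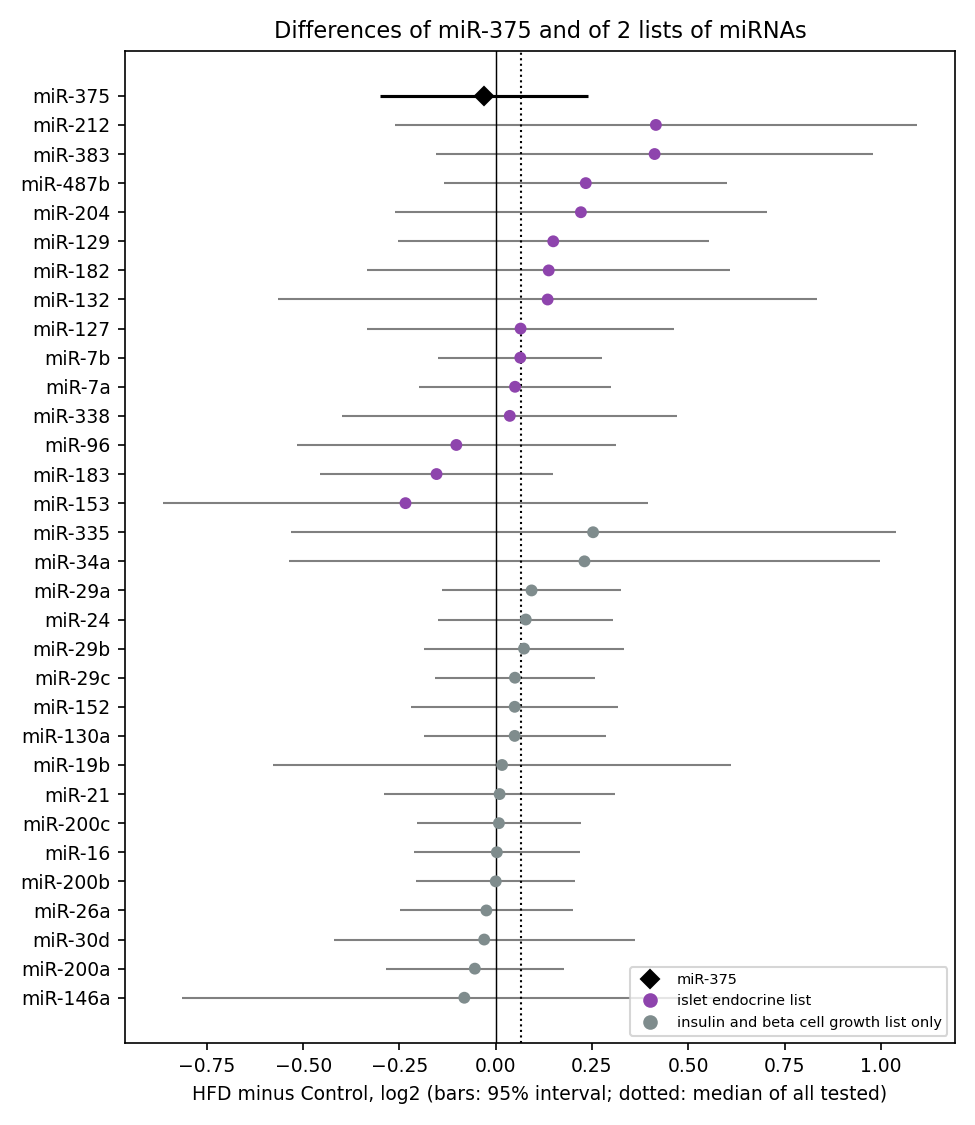
HFD minus Control difference (x axis, log2) of miR-375 and of the tested members of the islet endocrine list and the insulin and beta cell growth list (y axis), with limma 95% intervals as bars. The dotted line is the median of all 152 tested miRNAs, 0.066. The intervals of miR-375 and of every plotted miRNA include 0.

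Markers of other cells that an islet preparation can hold were present beside miR-375, and fewer cells of a type and less RNA per cell cannot be told apart in these samples. Acinar cells secrete digestive enzymes and surround the islets. The summed scaled signal of the acinar miRNAs, of which miR-216a was the only 1 of 3 list members that could be tested, was 731.8 in HFD 603, 332.0 in HFD 607, 116.5 in HFD 644 and 280.9 in HFD 653. It was 684.2 in Control 602, 469.1 in Control 613, 97.5 in Control 615 and 23.0 in Control 639. HFD 603, with the lowest miR-375, had the highest acinar sum, and Control 639, with the highest miR-375, had the lowest. On the first design miR-217 was at the floor in both groups, so this sum is miR-216a almost alone. The correlation of miR-216a with miR-375 given below is therefore not a separate observation.

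On the second design the acinar sum was 481.2 in HFD 640, against 504.4 in Control 635 and 405.1 in Control 652, and it was highest where miR-375 was highest. Leukocyte miRNAs summed to 36.9 to 391.6 in HFD and 36.4 to 44.3 in Control on the first design, with HFD 603 at the top. HFD 653 was at 137.3, HFD 607 at 52.2 and HFD 644 at 36.9. On the second design this sum was 160.2 in HFD 640, against 161.4 in Control 635 and 85.5 in Control 652. Its tested members were miR-150 and miR-223. miR-150, detected on 7 arrays, differed by 1.73 ± 0.61 (SE), with a limma p of 0.018, or 0.987 adjusted. The 7 were 4 HFD and 3 Control arrays. On the first design miR-150 was at 5.70 ± 1.74 in HFD and 3.63 ± 0.14 in Control (SD, n = 4 each). That Control level lay close to the floor of 3.49, so the size of the difference is unsure. miR-223 differed by 0.14 ± 0.31 (SE), with a limma adjusted p of 0.987. On the first design endothelial miRNAs summed to 384.8 to 673.6 in HFD and 427.5 to 551.6 in Control. Mesenchymal ones there summed to 298.4 to 653.3 in HFD and 289.5 to 505.9 in Control. miR-122, the miRNA of liver cells, was at 0 on all 8 arrays. The part of these cells in the level of miR-375 was not tested.

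Over the 8 arrays of the first design, miR-375 was compared in turn with each of 83 other miRNAs detected on all 11 arrays, which leaves out miR-26b, whose level the scaling held constant there. Pearson r was above 0 for 53 and below 0 for 30, with a median of 0.23. After adjustment over the 83 relations, 0 passed at 0.05 in exact permutation tests, and 6 had an unadjusted p under 0.05 for Pearson r. The relations are therefore given as a description of 8 arrays that share a slide and a scaling. The second design held 3 arrays, too few for a correlation.

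The most similar was miR-7b, an endocrine miRNA, at r = 0.74 and rho = 0.64, with exact permutation p-values of 0.037 and 0.096. Next were miR-29c, a relative of miR-29a, at r = 0.73 and rho = 0.88 (exact permutation p = 0.042 and 0.0072), and miR-7a at r = 0.72 and rho = 0.71 (exact permutation p = 0.044 and 0.058). They were followed by miR-103, which lowers insulin sensitivity in mice, at r = 0.68 and rho = 0.74 (exact permutation p = 0.060 and 0.046). The last was miR-183, at r = 0.67 and rho = 0.74 (exact permutation p = 0.068 and 0.046). All 5 had an adjusted exact permutation p of 0.462 for r, and of 0.319 to 0.363 for rho.

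miR-7a-5p and miR-7b are shown because both head this order while carrying a seed unlike that of miR-375, and because they differ at 1 of 23 positions, so the array may not tell them apart. The seed, bases 2 to 8, is in capitals, and the sequences are from RefSeq on GRCr8.
rno-miR-7a-5p: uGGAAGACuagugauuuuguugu
rno-miR-7b: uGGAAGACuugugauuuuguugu

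HFD 607 and Control 639 were the 2 arrays farthest from the median level of miR-375. Without them, over 6 arrays, r was 0.54 for miR-7b, 0.59 for miR-29c, 0.52 for miR-7a and 0.60 for miR-103, and 0.92 for miR-183. As deviations from the slide-column means the same order of miRNAs gave 0.49, 0.67, 0.66, 0.91 and 0.98, and as deviations from the slide-row means 0.70, 0.64, 0.62, 0.60 and 0.58. Only miR-183 was among the 5 highest without the 2 farthest arrays. Without scaling between arrays the 5 ran from 0.89 to 0.95, but there the median over all 83 miRNAs was 0.77.

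The lowest of the 83 was miR-216a of acinar cells, at r = -0.82 and rho = -0.83 (exact permutation p = 0.012 for r, or 0.462 adjusted). miR-34a followed at r = -0.76 and rho = -0.83, and let-7a, of a family that slows growth through insulin and growth factor signalling, at r = -0.72 and rho = -0.79. Without the 2 farthest arrays r was -0.93 for miR-216a, -0.62 for miR-34a and -0.50 for let-7a. As deviations from the slide-column means it was -0.93, -0.82 and -0.58, and from the slide-row means -0.82, -0.68 and -0.69. Without scaling it was -0.54 for miR-216a, -0.65 for miR-34a and 0.65 for let-7a, and with median scaling -0.43, -0.31 and 0.40. The sign for let-7a thus depended on the scaling.

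miR-216a read 9.52, 8.37, 6.86 and 8.13 in HFD 603, 607, 644 and 653. It read 9.41, 8.87, 6.61 and 4.53 in Control 602, 613, 615 and 639. Its fitted HFD minus Control difference was 0.68 ± 0.84 (SE), with a limma adjusted p of 0.987. Control 639 had the lowest miR-216a and the highest miR-375 of the 8 arrays, and HFD 603 the highest miR-216a and the lowest miR-375. These are the same readings as in the acinar sum above.

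**Figure D5:**
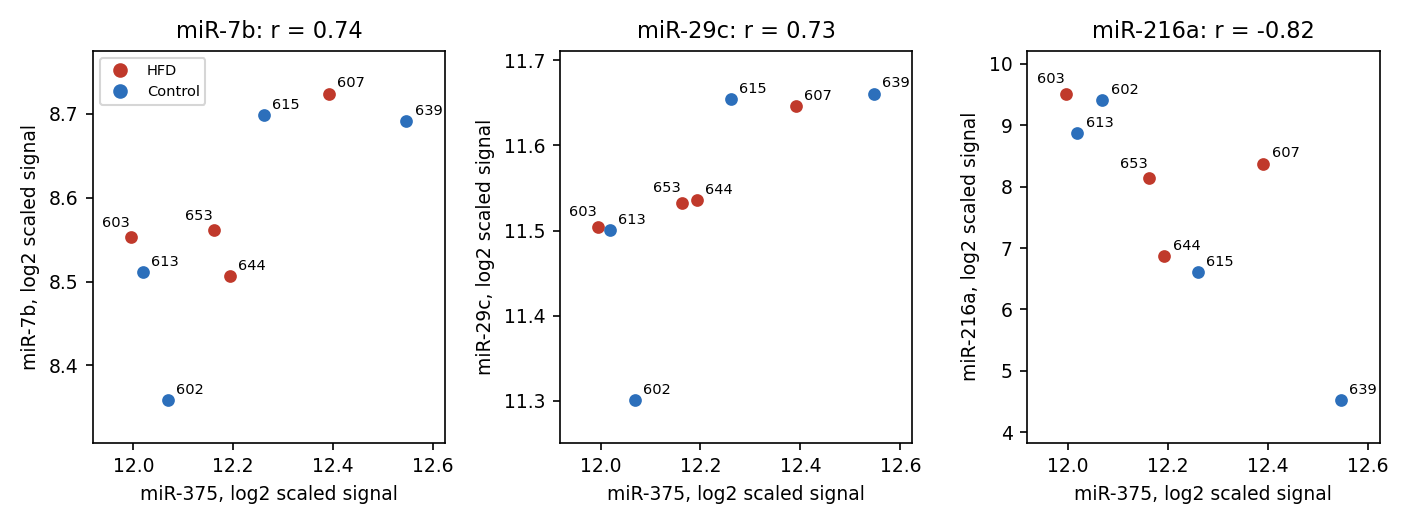
Log2 scaled signal of miR-7b, miR-29c and miR-216a (y axes) against that of miR-375 (x axes) on the 8 arrays of the first design, HFD in red and Control in blue with sample numbers. miR-7b and miR-29c lie higher where miR-375 is higher (r = 0.74 and 0.73), and miR-216a lies lower (r = -0.82), with Control 639 at the far right of each panel.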

How the data were processed

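Agilent Feature Extraction files, 1 array each, hold spot intensity that the software had background-subtracted, with no normalisation across arrays, per the file headers (version 10.5.1.1 on the first design, 10.7.3.1 on the second). The other deposited value, in its own file for each array, is a detection call beside the total intensity per miRNA. The authors' deposited tables of log2 values equal, for miR-375, log2 of the total plus 50 on the first design and log2 of the total on the second, with no scaling, centring or ratio. The submitters' processing notes list RMA and Partek, whose role is not given in the sources used here.

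Here unflagged spots were averaged per probe and probes were summed per miRNA. Arrays were scaled to the 75th percentile of the 85 miRNAs that every array detected. A floor was set at the 1st percentile of detected scaled values (11.3) before log2 was taken. limma 3.58.1 in R 4.3.3 tested HFD minus Control over 152 miRNAs, 2-sided, with array design as a block and Benjamini-Hochberg adjustment. Exact permutation used 210 splits within design, and correlations all 40320 orders. The fit was also run on simulated data with independent noise and no shift between array designs. These arrays differ from that setting, so no power to detect a difference here is read from it. Normexp used median signals, since the files hold no mean signal column. Named miRNAs were miR-375, 7 from each of the 2 lists, and the 5 highest and 3 lowest correlations. miR-375, the lists and the rules were chosen with earlier results of these data known.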

Additional observations from a re-analysis of the deposited data

Results flagged for a closer look

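Within groups of 4 arrays, 46 sets of values of miR-375 and the named miRNAs were checked for 1 array far from the other 3, and 1 was found where chance alone gives about 1 in 20, or 2.3 of 46. It was not miR-375. miR-200c, which keeps epithelial cells from changing into mesenchymal ones, was high in Control 615 on the first design, at 12.98 against 12.75 to 12.77 in the other 3 Control samples. The gap to the nearest of them was 0.934 of the whole range, more than Dixon's critical value for 4 samples. miR-375 in Control 615 was 12.26, between the other Control samples. The cause was not tested.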

How the results depend on the processing

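The difference in miR-375 kept its sign under 27 of 32 alternatives and passed the threshold in none of them, the interaction with array design being given in the report. The higher floor, the other detection filters and the permutation could not change the value, and each gave -0.031. The first design alone, the slide-row block and leaving out HFD 640 gave the same value, -0.038. The 27 are therefore not separate checks. The difference reversed without scaling between arrays, at 0.042 (SE 0.34), in the authors' deposited table, at 0.051, and with array weights, at 0.031. Leaving out 1 array at a time gave -0.079 to 0.048, with reversals without Control 639 (0.048) and without HFD 603 (0.016), and limma adjusted p from 0.932 to 0.996. Median scaling gave -0.18 and the 75th percentile over all shared miRNAs -0.26, where the medians of all tested miRNAs were -0.084 and -0.15 against 0.066, so miR-375 was -0.100 and -0.11 from those medians. Without scaling that median was 0.16, and with quantile normalisation -0.062. Calls were 0 in each of these settings except that 1 miRNA was called without scaling, at a smallest limma adjusted p of 0.00062. Dropping single arrays left 0 calls, with a smallest adjusted p of 0.554 to 0.995.

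Probe A_26_P00001826 kept its sign in 14 of 14 alternatives, at -0.16 to -0.070 with single arrays left out. Probe A_26_P00001827 reversed without scaling, at 0.054, without Control 639, at 0.063, and without HFD 603, at 0.029, in a range of -0.072 to 0.063. Against the other endocrine miRNAs the value was reversed by quantile normalisation, at 0.059, was -0.0081 in the deposited table, and ran from -0.17 to -0.098 with single arrays left out. The share of signal kept its sign in 16 of 16, from -0.423 to -9.5e-05 percentage points with single arrays left out, the last without Control 639. In these counts too, the first design alone and leaving out HFD 640 gave the same value. It was -0.16 for probe A_26_P00001826 and -0.153 percentage points for the share. Of the 5 miRNAs most like miR-375, 1 remained without the 2 farthest arrays and 2 with deviations from slide-column means. The cause of these shifts was not tested.

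Slide row and column blocks, spot-matched values and the arrays without slide column 1 (-0.059) were chosen after seeing the data. No paired analysis was possible because the groups share no replicate numbers in the labels. Slide column, which 1 HFD and 1 Control array share in columns 1 and 3, was fitted as a block instead, at -0.031 ± 0.17 (SE). The number of arrays limits precision: the interval of miR-375 spans folds of 0.811 to 1.18.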
